A study of Rattus norvegicus with 15 samples.

Results

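Complex I genes were examined in H9c2, a myoblast line from rat heart ventricle that fuses into myotubes in low serum. The members are every row of the deposited RNA-seq count table whose symbol starts with Nduf, which gave 44 rows of 43 symbols among 11574 genes. They comprised 7 core subunits, 27 accessory subunits (Ndufa10l1 among them), 8 assembly factors named Ndufaf, Ndufa4 and a second row for Ndufv3. The 5 groups had 3 libraries each. T0 cells were taken 24 h after seeding in 10% fetal bovine serum, with no retinoic acid. T7-RA and T14-RA cells were kept in 1% serum without retinoic acid until days 7 and 14, and T7+RA and T14+RA cells were kept in 1% serum with all-trans retinoic acid (RA) at 1 µM added daily. The line was wild type throughout, the RA stock was made in DMSO, and the labels do not say whether the -RA cultures received DMSO. Each group is thus a culture of 1 established line, and nothing in the labels says that the 3 libraries came from separate cultures, while the methods call them biological replicates. P-values here measure the spread between these libraries, which may be technical.

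Complex I (NADH:ubiquinone oxidoreductase) is the entry point of NADH electrons into the respiratory chain and pumps protons across the inner mitochondrial membrane. Its matrix arm holds the N module, which oxidises NADH, and the Q module, which reduces ubiquinone; its membrane arm holds the pumping modules, whose core subunits are encoded by mitochondrial DNA. The nuclear genome encodes the matrix core and the many accessory subunits that surround it, and assembly factors help to build the enzyme without staying in it. Muscle differentiation is known for a rise of mitochondrial content, and the study asked how much of the change in these cultures belonged to time and how much to RA.

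The 15 libraries held 508397 to 1030820 counts. A complex I subunit had a median of 45.3 counts per library, and the Ndufaf factors had 2.53 to 25.7. Levels below are in CPM, counts scaled to the library total with TMM factors, and a change is a log2 fold change from edgeR's quasi-likelihood test with its standard error (SE). Genes were called at a Benjamini-Hochberg adjusted p under 0.001 over all 11574 genes. The muscle marker list had 7 of its 8 measured genes raised at T14, among them Myog, the myogenin gene, at 3.81, and 0 lowered. The remaining gene, Myod1, changed by -0.88 (adjusted p = 0.00689, edgeR) and was not called. The proliferation list had 4 of 6 genes lowered. Myf5 and Ttn of the muscle list were not among the rows. Of 8 cardiomyocyte markers only Pln and Gata4 were among the rows, 6 leukocyte markers had no row, and the 1 measured endothelial marker stayed at 0 to 6.29 CPM. Summed muscle markers lay at 278.8 to 339.6 CPM at T0, at 2838 to 3271 CPM in T7-RA and at 9814 to 10150 CPM in T14-RA. Most of the T14-RA sum was Myh3 and Acta1, with means of 5056 and 3258 CPM. Summed fibroblast markers lay at 24630 to 37560 CPM at T0 and at 18450 to 25740 CPM later, nearly all of it Col1a1, which fell by 0.56 on the log2 scale at T14. Dcn and Lum of that list were at 0 CPM in every T0 library and rose to 50.5 ± 7.19 and 28.5 ± 2.70 CPM in T14-RA (SD, n = 3), so the list moved both ways, and the part of either list in the results below was not tested.

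The summed level of the 44 members rose over the culture. It was 2000.2, 2778.6 and 2056.4 CPM at T0, then 2722.2, 2890.6 and 2672.4 CPM in T7-RA and 3371.6, 3655.6 and 3219.1 CPM in T14-RA. With RA it was 2634.2, 2509 and 2500.7 CPM at day 7 and 3569.1, 4062.5 and 3531.5 CPM at day 14. All day 14 libraries thus stood above all day 7 and T0 libraries. T0 replicate 2 stood above the other T0 libraries and overlapped the day 7 groups, and the T7+RA libraries were below the T7-RA libraries, while the day 14 groups with and without RA overlapped. The mean was 2278.4 ± 434.1 CPM at T0, 3415.4 ± 221.6 CPM in T14-RA and 3721.0 ± 296.3 CPM in T14+RA (SD, n = 3). Relative to T0 the T14+RA mean was 1.63 times as high, or 1.84 times without T0 replicate 2. The members took 0.189% to 0.407% of a library's counts. In bulk RNA, more complex I mRNA per cell and a larger share of cells rich in it cannot be told apart.

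**Figure D1:**
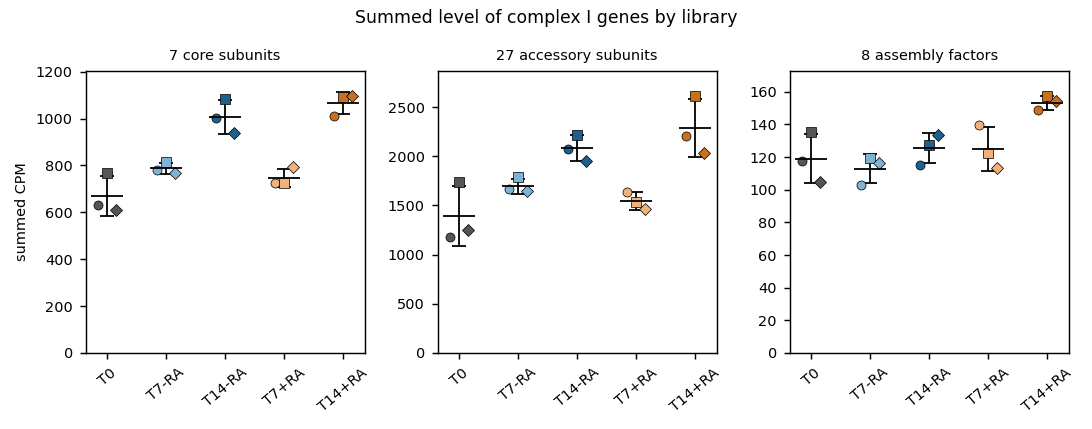
Summed CPM of the 7 core subunits, the 27 accessory subunits and the 8 Ndufaf assembly factors in each of the 15 libraries. Circles, squares and diamonds are replicates 1, 2 and 3, and the bars are the group mean and SD (n = 3). The core and accessory sums of every day 14 library lie above those of every T0 library.

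In each group, replicate 3 was the lowest of the 3 libraries for 21 to 23 of the 44 members, and replicate 2 was the highest for 20 to 29 of them in all groups but T7+RA, where it was the highest for 12. Over all genes, replicate 3 was the lowest for 32.1% to 36.0% and replicate 2 the highest for 31.6% to 34.9%.

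The T14 term held the most called members of the 8 comparisons. It is the change from T0 to day 14 in the additive model of T7, T14 and RA, which takes 1 RA effect for both days. It draws on the T14+RA libraries as well, so it is not the change from T0 to T14-RA alone. The T7 term is built the same way. Of the 44 members 12 were called as raised, or 27.3%, and 0 as lowered, against 8.47% of all genes raised. These were 11 of the 34 complex I subunits and Ndufa4, which belongs to complex IV. The median of the members was 0.54 and that of all genes 0.05, and 39 of 44 members had a change above 0. At an adjusted p under 0.05 there were 22 members raised, against 17.9% of all genes. All T14-RA libraries lay above all T0 libraries for 17 members (21.5% of all genes did so). The T14 term spans the fall in serum from 10% to 1% as well as 2 weeks of culture, so time and serum cannot be told apart.

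The count of raised members moved with the libraries and with the method. It was 5 without T0 replicate 1, 6 without T0 replicate 3 and 8 without T14-RA replicate 2 or T7+RA replicate 2. It was 6 with DESeq2, 5 with limma-voom, 3 with limma on quantile-normalized counts and 7 with thinned counts, while the median change stayed between 0.43 and 0.74 over the fits that left out each library in turn.

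Of the 7 core subunits, which carry the flavin and the iron-sulphur clusters, 4 rose at T14 and the other 3 had positive changes that were not called. Ndufs1, the large iron-sulphur subunit of the N module, read 86.9, 95.7 and 69.2 CPM at T0, 122.9, 130.4 and 130.7 CPM in T7-RA and 162.2, 161.2 and 171 CPM in T14-RA. With RA it read 106.9, 116.8 and 142.3 CPM at day 7 and 175.6, 177.6 and 201.2 CPM at day 14. Its day 14 libraries were all above its day 7 libraries, which were all above T0. The T14 change was 1.02 (SE 0.15, adjusted p = 1.88e-07, edgeR), a 2.02-fold rise, and it was called in each of the 25 other fits.

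Ndufs7, which carries the terminal iron-sulphur cluster next to ubiquinone, went from 46.0 ± 7.19 CPM at T0 (SD, n = 3) to 76.0 ± 11.5 CPM in T14-RA and 103.1 ± 10.5 CPM in T14+RA. Ndufv2, an iron-sulphur subunit of the N module, went from 57.5 ± 12.0 to 87.8 ± 11.2 and 113.5 ± 2.29 CPM in the same groups (SD, n = 3). Their T14 changes of 0.83 and 0.78 (SE 0.20 and 0.19) were called at adjusted p = 0.000724 and 0.000741 (edgeR), both close to the threshold. These calls were lost in 11 and 9 of the 15 fits that left out 1 library.

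The 3 core subunits that were not called were Ndufv1, Ndufs3 and Ndufs8. Ndufv1 holds the flavin that takes electrons from NADH. It read 136.6, 165.1 and 121.6 CPM at T0 and 133.6, 145.1 and 114.7 CPM in T7-RA, with no visible shift, and 187.4, 200.1 and 164.3 CPM in T14-RA. With RA it read 112.6, 127.5 and 120 CPM at day 7 and 189.1, 215.3 and 194 CPM at day 14. Its T14 libraries with RA were all above T0, whereas T14-RA overlapped T0 by 1 library, and its T14 change was 0.44 (SE 0.14, adjusted p = 0.01002, edgeR). Ndufs3 and Ndufs8, further Q module subunits, had T14 changes of 0.55 (SE 0.21) and 0.35 (SE 0.18) with adjusted p = 0.0355 and 0.125 (edgeR).

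**Figure D2:**
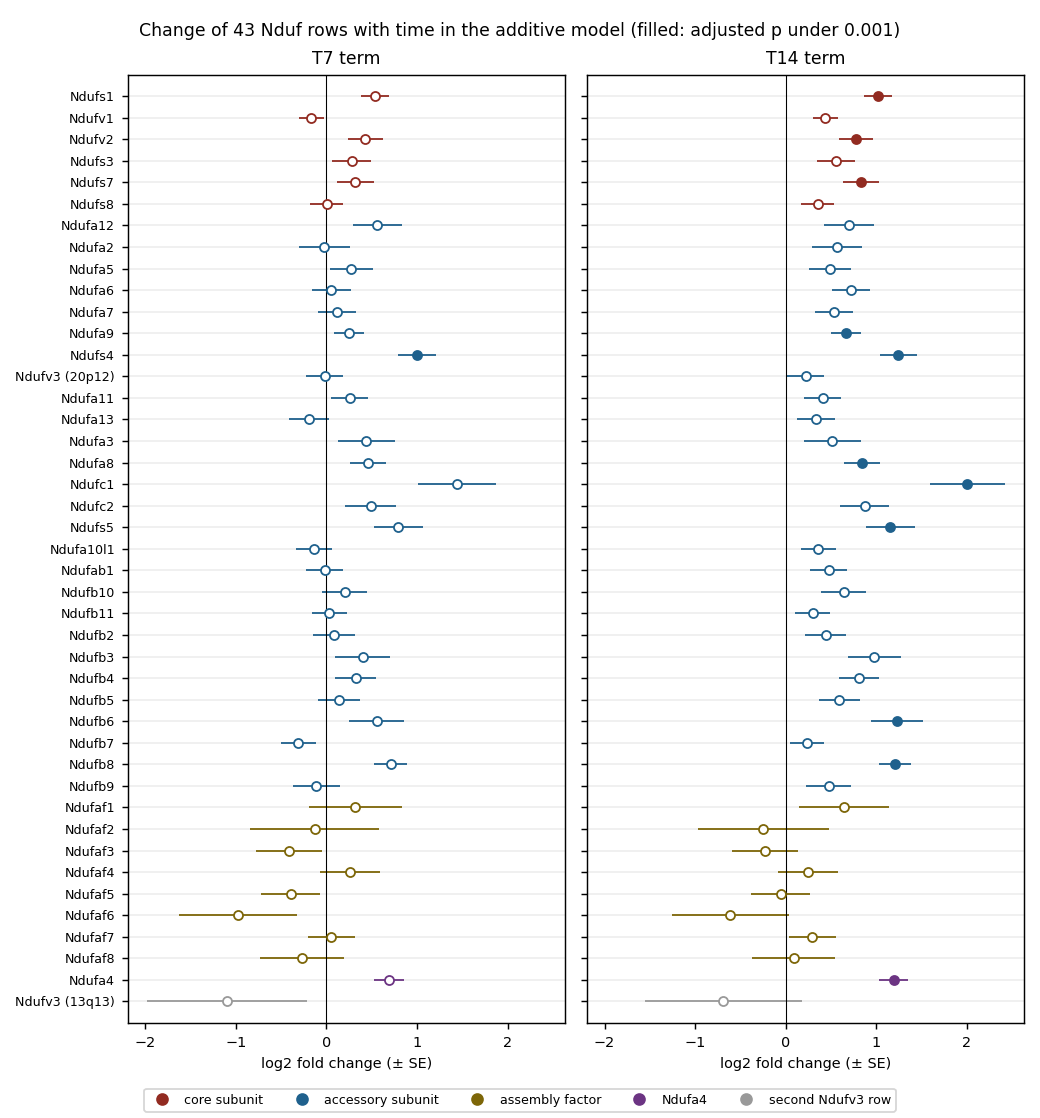
T7 and T14 terms of 43 Nduf rows from edgeR's additive model, as log2 fold changes with bars of 1 SE, ordered by role. Filled points passed an adjusted p under 0.001, which 1 row did for T7 (Ndufs4) and 11 of those drawn did for T14, and all 33 subunits drawn lie above 0 for T14.

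All 27 accessory subunits had T14 changes above 0, from 0.22 to 2.00, with a median of 0.59, and 7 were called. In the matrix arm 2 of 8 rose (Ndufs4, Ndufa9), in the proximal membrane arm 3 of 7 (Ndufc1, Ndufs5, Ndufa8), and in the distal membrane arm 2 of 11 (Ndufb6, Ndufb8). Ndufa10l1 was not called at 0.36 (SE 0.19). Of the 17 subunits at or above the median count 8 were called, and of the 17 below it 3, although their median changes were 0.59 in both.

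Ndufs4, an accessory subunit joined late to the matrix arm whose loss causes Leigh syndrome, was the only member called by day 7. It read 29, 71.3 and 39.8 CPM at T0, 85.9, 100.8 and 94.4 CPM in T7-RA and 110.5, 99.2 and 101.6 CPM in T14-RA. With RA it read 61.3, 84.6 and 58.3 CPM at day 7 and 83, 91.2 and 90.6 CPM at day 14. T0 lay below both groups without RA in every library, while T7+RA overlapped T0 replicate 2. The T7 term was 1.00 (SE 0.21, adjusted p = 0.000186) and the T14 term 1.24 (SE 0.21, adjusted p = 1.63e-06, edgeR).

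Ndufc1, a small subunit of the proximal membrane arm, had the largest change of the members and few counts (219 in all). It read 9.7, 3.8 and 6.3 CPM at T0, 14.31, 28.2 and 17.4 CPM in T7-RA and 30, 26.6 and 23.7 CPM in T14-RA. With RA it read 28.5, 17.4 and 10.3 CPM at day 7 and 33.8, 33 and 23.6 CPM at day 14. Its T0 values stood on 7, 2 and 3 counts, and no T0 library reached the lowest of the others. The T14 change was 2.00 (SE 0.41, adjusted p = 8.35e-05, edgeR), a 4.00-fold rise, and the call was lost without T0 replicate 2.

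Ndufb8, a subunit of the distal membrane arm, had the highest level per length of all members in T14-RA, at 321.6 CPM per kilobase of its longest transcript. Its T0 libraries were far apart, at 56.6, 120.1 and 138.3 CPM. It read 177.7, 166.6 and 164.1 CPM in T7-RA, 209, 242.6 and 228.6 CPM in T14-RA, 158.2, 149 and 142.3 CPM in T7+RA and 209.3, 279.7 and 183.1 CPM in T14+RA. Despite that spread no T0 library overlapped a later group, and the T14 change was 1.20 (SE 0.18, adjusted p = 9.83e-07, edgeR), still called when any 1 of the 15 libraries was left out.

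A further 4 accessory subunits were called at T14. Ndufb6, in the distal membrane arm, read 24.8, 22.5 and 16.8 CPM at T0, 38.2, 29.6 and 27.6 CPM in T7-RA, 46.85, 62 and 47.4 CPM in T14-RA, 12.8, 37.6 and 34.3 CPM in T7+RA and 37.6, 58.15 and 41.7 CPM in T14+RA. T0 lay below every later group except T7+RA, whose replicate 1 was below all of T0, and the T14 change was 1.23 (SE 0.29, adjusted p = 0.000451, edgeR).

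Ndufs5, in the proximal membrane arm, read 30.35, 24.4 and 21 CPM at T0, 50.1, 43 and 37.8 CPM in T7-RA, 58.9, 46.05 and 71.1 CPM in T14-RA, 42.8, 41.6 and 34.3 CPM in T7+RA and 53.05, 66 and 23.6 CPM in T14+RA. T14+RA thus overlapped T0 through its replicate 3, while the other later groups lay above T0, and the T14 change was 1.15 (SE 0.27, adjusted p = 0.000403, edgeR). Ndufa8, of the same arm, read 56.6, 76.9 and 35.6 CPM at T0, 78.7, 90 and 78.4 CPM in T7-RA, 96.1, 118.7 and 77.9 CPM in T14-RA, 95.5, 80.55 and 96 CPM in T7+RA and 112.9, 165 and 112.4 CPM in T14+RA. No T0 library reached a later group, though T0 replicate 2 came near the lowest of them, and the T14 change was 0.84 (SE 0.20, adjusted p = 0.0006, edgeR). Ndufa9, with a change of 0.67, completed the list. Among the called accessory subunits these 4 had the less stable calls. Ndufa9 was lost in 13 of the 15 fits that left out 1 library, Ndufa8 and Ndufs5 in 5 each and Ndufb6 in 4.

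The accessory subunits with the smallest T14 changes were Ndufv3 (20p12) at 0.22, Ndufb7 at 0.24, Ndufb11 at 0.30 and Ndufa13 at 0.33, and their SE ran from 0.19 to 0.21. Ndufb7 read 55.2, 110.7 and 115.3 CPM at T0 and 94.9, 118.7 and 89.8 CPM in T14-RA, so its groups overlapped throughout.

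The 8 Ndufaf assembly factors gave 0 calls at T14 by edgeR, 0 at an unadjusted p under 0.05 and 0 by DESeq2 or limma, and had a median of 0.01, from -0.61 for Ndufaf6 to 0.64 for Ndufaf1. They held only 38 to 386 counts over all libraries, so a missing call says little. Ndufaf7, a methyltransferase needed for assembly, was the best counted and changed by 0.29 (SE 0.26). Ndufaf3 and Ndufaf4, partners in building the Q module, had changes of -0.23 (SE 0.37) and 0.24 (SE 0.34). Ndufaf1, which acts in membrane arm assembly, was at 0 CPM in T0 replicate 1 and at 16.9 and 10.5 CPM in the other T0 libraries, so its change of 0.64 had an SE of 0.50. Ndufaf2, Ndufaf5 and Ndufaf8 lay at -0.25, -0.06 and 0.09 with SE of 0.72, 0.32 and 0.46. A further 12 measured assembly factors with other names gave 0 calls in either direction and a median of 0.29. Summed over the 8 Ndufaf genes the T14+RA libraries stood at 148.6 to 157.2 CPM, above every library of the other groups, whose highest was 139.7 CPM.

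Ndufa4 carries the family name but is a subunit of cytochrome c oxidase, complex IV. It read 71.7, 131.3 and 81.8 CPM at T0, 173, 170.7 and 143.8 CPM in T7-RA and 186.2, 221.4 and 189.7 CPM in T14-RA. With RA it read 131.1, 122.2 and 133.7 CPM at day 7 and 199.7, 201.2 and 246.5 CPM at day 14. T0 lay below every later group except T7+RA, which overlapped T0 replicate 2. Its T14 change was 1.19 (SE 0.16, adjusted p = 2.17e-08, edgeR), the lowest p of the members. Ndufa4l2, its paralogue, was not among the rows.

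**Figure D3:**
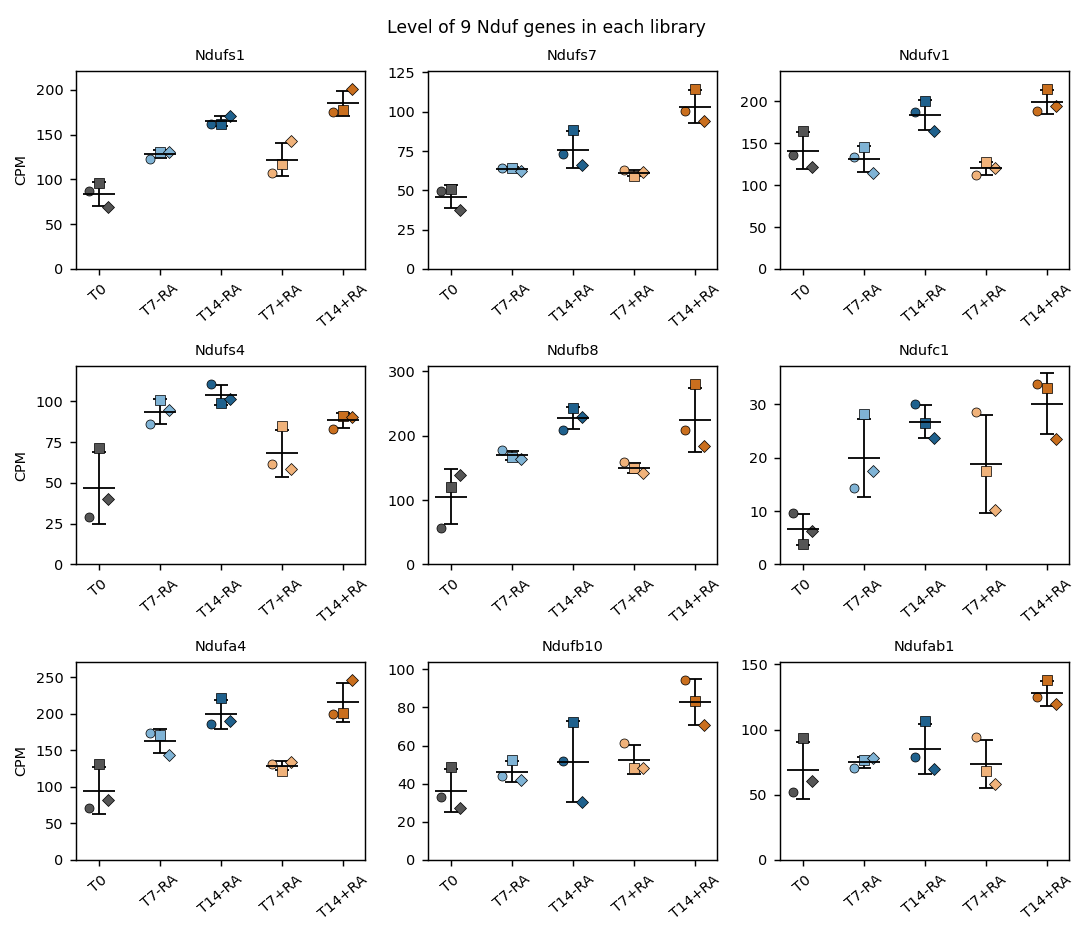
CPM of 9 Nduf genes in each library, by group, with circles, squares and diamonds for replicates 1, 2 and 3 and bars for the mean and SD (n = 3). Ndufs1, Ndufs4, Ndufb8, Ndufc1 and Ndufa4 are lower at T0 than in T14-RA in every library, and Ndufab1 is higher in T14+RA than in every other group.

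Some genes of the enzyme could not be followed. Ndufa1, Ndufa10, Ndufb1, Ndufs6 and the 7 mitochondrially encoded subunits were not among the rows. Ndufa10l1, at cytoband 9q36, may share its naming with Ndufa10, and reads of near-identical copies may have been split between rows. Ndufv3 appeared at 20p12 with 656 counts and at 13q13 with 28 counts, the latter with at most 4 counts in a library, and nothing was read from the second row. A pair of rows outside the naming rule are described as NADH dehydrogenase proteins, LOC100912599 with 30 counts, of which 9 libraries had 0, and LOC100361934 with 97 counts.

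By day 7 the members had moved less. The T7 term called 1 of 44 members as raised, Ndufs4, and 0 as lowered, against 4.29% of all genes raised, and the members' median was 0.21 against 0.02 for all genes. The core subunits ran from -0.17 for Ndufv1 to 0.54 for Ndufs1 (SE 0.16, adjusted p = 0.00792, edgeR). Ndufa4 at 0.69 (adjusted p = 0.00112) and Ndufb8 at 0.71 (adjusted p = 0.00346, edgeR) came near the threshold. At an adjusted p under 0.05 there were 6 members raised, against 11.7% of all genes. Every T7-RA library lay above every T0 library for 14 members, against 17.5% of all genes. The count called was 0 without T0 replicate 1 and 2 without T0 replicate 2, T14-RA replicate 1 or 3, T7+RA replicate 2, or T14+RA replicate 2 or 3. The members' median ran from 0.09 to 0.37 over the fits that left out each library in turn.

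The second week was read within each arm, which leaves out T0 and the change of serum. Without RA, T14-RA against T7-RA called 0 of 44 members (1.87% of all genes were raised), and 39 of 44 had changes above 0 with a median of 0.28 against 0.00 for all genes. By unadjusted p under 0.05 (edgeR) 11 were higher and 0 were lower, against 9.33% of all genes higher, and DESeq2 and limma also called 0. At an adjusted p under 0.05 (edgeR) 3 members were raised, against 4.2% of all genes. Ndufv1 at 0.48 (SE 0.14) and Ndufa10l1 at 0.62 (SE 0.19) were among them. In 19 of 44 members every T14-RA library lay above every T7-RA library, against 13.2% of all genes.

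With RA, T14+RA against T7+RA called 2 of 44 members as raised, against 2.4% of all genes. Changes were above 0 in 41 of 44 members, with a median of 0.53 against 0.01 for all genes. The called members were Ndufv1 at 0.72 (SE 0.14, adjusted p = 7.3e-05) and Ndufa4, of complex IV, at 0.73 (SE 0.15, adjusted p = 0.000128, edgeR). For 24 members every T14+RA library lay above every T7+RA library, against 14.4% of all genes. At an adjusted p under 0.05 there were 13 members, against 5.66% of all genes. The count rose to 7 without T0 replicate 2 and 5 without T0 replicate 3, although neither group compared holds those libraries, and fell to 1 without T7+RA replicate 1 or 2 or without T14+RA replicate 2.

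RA itself moved no member past the threshold. The RA term, which averages the RA effect of day 7 and day 14, called 0 of 44 members while 6.39% of all genes were called in either direction. The members' median was 0.03, against -0.01 for all genes. By unadjusted p under 0.05 (edgeR), 4 members were higher and 1 was lower, against 12.1% and 12.7% of all genes, and DESeq2, limma-voom and limma-trend also called 0 members in each RA comparison below. At an adjusted p under 0.05 (edgeR) the RA term had 1 member, against 14.7% of all genes. The check that RA acted was clear in the same libraries, as all 4 measured RA response genes were raised, among them Cyp26b1, which encodes an RA-degrading enzyme, from 1.13 ± 1.96 CPM in T14-RA to 633.3 ± 32.2 CPM in T14+RA (SD, n = 3). The summed muscle markers lay at 1655 to 1935 CPM in T7+RA and at 4510 to 5208 CPM in T14+RA, below the groups without RA. The RA term lowered 3 of the 8, namely Acta1 at -0.86, Actn2 at -1.89 and Myh3 at -1.33. Myod1 went the other way with RA at day 7, at 0.77 (adjusted p = 0.00106, edgeR), and was not called. The part of these marker shifts in the members' values was not tested.

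At day 7, RA called 0 of 44 members (3.17% of all genes were called), and 33 of 44 members had changes below 0 with a median of -0.13. All 7 core subunits were among these, with a median of -0.11. Over all 11574 genes 6084 were below 0 and the median was -0.02. By unadjusted p under 0.05, 1 member was higher and 2 were lower, against 8.67% and 8.58% of all genes. For 4 members every T7-RA library lay above every T7+RA library, namely Ndufs4, Ndufb8, Ndufb9 and Ndufa4, against 12.6% of all genes. For Ndufaf1 and Ndufaf8 the T7+RA libraries were all the higher ones, as for 11.8% of all genes. Ndufs4 changed by -0.44 (95% interval -0.82 to -0.06, adjusted p = 0.184) and Ndufa4 by -0.34 (95% interval -0.64 to -0.04, adjusted p = 0.197, edgeR), and neither was called.

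At day 14, RA called 0 of 44 members (4.81% of all genes were called), and 31 of 44 had changes above 0 with a median of 0.16. Over all 11574 genes 5739 were above 0 and the median was -0.004. By unadjusted p under 0.05, 5 members were higher, near the 10.3% of all genes, and 0 were lower, against 11.3%. Every T14+RA library lay above every T14-RA library for 6 members, Ndufs1, Ndufv2, Ndufs7, Ndufab1, Ndufb2 and Ndufaf7, against 13.4% of all genes, and the reverse held for Ndufs4, against 13.9%. The highest changes were those of Ndufb10 and Ndufab1, and each had an adjusted p under 0.05, as 11.2% of all genes did in either direction.

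Ndufb10, a distal membrane arm subunit, read 51.6, 72.6 and 30.5 CPM in T14-RA and 94.5, 83.3 and 70.7 CPM in T14+RA, so the groups overlapped by 1 library. Its change was 0.71 (95% interval 0.29 to 1.14, adjusted p = 0.0171, edgeR). Ndufab1, the mitochondrial acyl carrier protein that is also a subunit of the enzyme, read 79.3, 106.3 and 69.4 CPM in T14-RA and 125.4, 138.3 and 119.6 CPM in T14+RA without overlap. Its change was 0.60 (95% interval 0.24 to 0.95, adjusted p = 0.0158, edgeR).

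**Figure D4:**
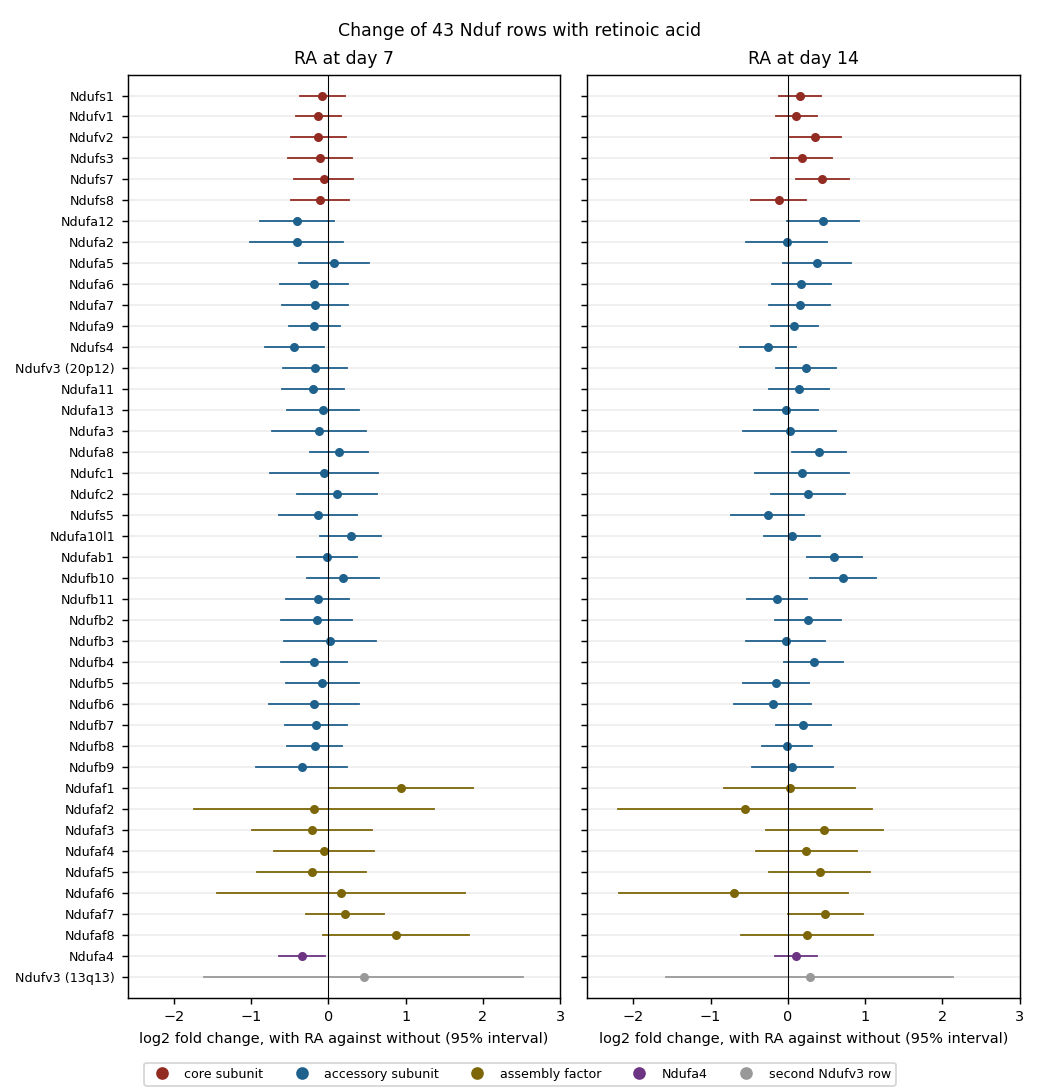
Change with RA of 43 Nduf rows at day 7 and at day 14, as log2 fold changes with 95% intervals from edgeR's model of 5 group means. 32 of these rows lie below 0 at day 7 and 31 above 0 at day 14, and the widest intervals are those of the second Ndufv3 row, Ndufaf2 and Ndufaf6.

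The depth bounded what RA could have done to the subunits. At each day the 95% interval of 33 of the 34 subunits lay within a 2-fold change in either direction, and the exceptions were Ndufa2 at day 7 and Ndufb10 at day 14. Within a 1.5-fold change lay 16 subunits at day 7 and 18 at day 14. Over both days, in the RA term, all 34 lay within a 2-fold change and 31 within a 1.5-fold change. Among the 8 Ndufaf factors 4 had wider intervals at day 7 and 5 at day 14.

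The change of the RA response between the days was tested itself. The difference of the RA changes, day 14 minus day 7, called 0 of 44 members at an adjusted p under 0.05 (0.743% of all genes were called), and 4 members had an unadjusted p under 0.05, all positive, against 4.03% of all genes with a positive change at that level. The members' median was 0.27, against 0.01 for all genes. It ran from 0.16 to 0.31 over the fits that left out each library in turn. Changes were above 0 in 32 of 44 members and in 5861 of all 11574 genes. The largest core values were 0.51 (SE 0.26) for Ndufs7 and 0.49 (SE 0.24) for Ndufv2, with adjusted p = 0.609 and 0.592 (edgeR). The same difference is that between the second weeks with and without RA, so it adds no separate evidence to the medians of 0.53 and 0.28.

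The other respiratory complexes moved the same way at T14. Of 44 rows for complexes II to V 26 were raised and 0 were lowered, with a median of 0.80, beside 11 of the 34 complex I subunits and their median of 0.59. By complex there were 3 of 4 rows raised for complex II, 6 of 10 for complex III, 8 of 13 for complex IV and 9 of 17 for complex V, with medians of 0.81, 0.80, 0.98 and 0.67. The rows of complexes II to V held more counts, with a median of 81 per library against 45.3, and whether the counts called differ between the complexes was not tested. The mitochondrial ribosome, with 71 genes, had 2 raised and a median of 0.28.

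For RA, at day 7 the median was -0.13 for the complex I subunits and -0.10 for complexes II to V, and at day 14 it was 0.15 and 0.24. In complexes II to V, RA at day 7 lowered 1 row, and RA at day 14 raised 1 and lowered 1. By unadjusted p under 0.05 (edgeR), RA at day 14 was higher for 15 of the 44 rows of complexes II to V and 5 of the 34 complex I subunits, with 41 and 23 changes above 0. For the difference of the RA changes 16 and 3 were positive at that level, and 43 and 27 were above 0. These counts stand against the same 10.3% and 4.03% of all genes, and the difference between the sets was not tested.

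**Figure D5:**
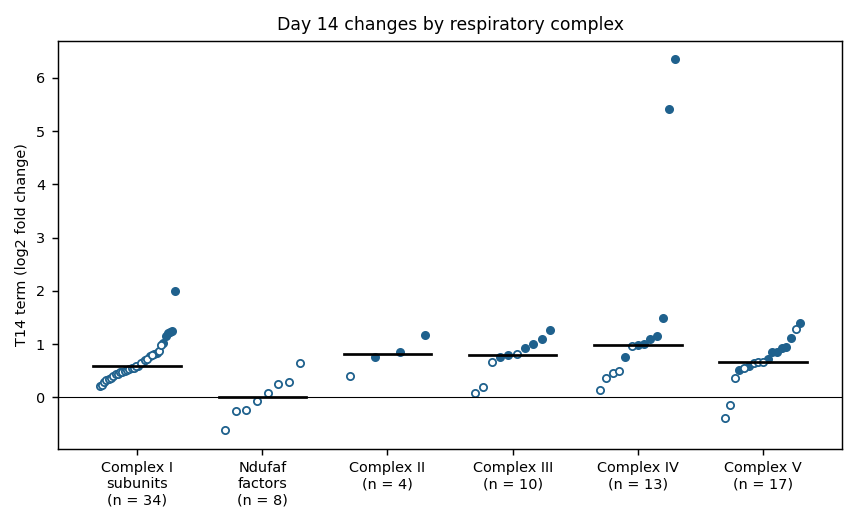
T14 term (log2 fold change) of each gene row, by complex, with filled points at an adjusted p under 0.001 and bars at the medians. The complex I subunits have a median of 0.59 and the Ndufaf factors 0.01, beside 0.81, 0.80, 0.98 and 0.67 for complexes II, III, IV and V, and the 2 points above 5 are Cox8b and Cox6a2 of complex IV.

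Of 13 measured regulators of mitochondrial biogenesis 0 rose and 1 fell at T14, with a median of 0.20, and Ppargc1a and Esrrg were not among the rows. The gene that fell was Pprc1, a coactivator of the PGC-1 family, at -1.10 (adjusted p = 9.25e-09, edgeR). At an adjusted p under 0.05 (edgeR) 4 were raised and 2 lowered, against 17.9% and 17.5% of all genes. The raised ones were Ppard at 0.74, Ppargc1b at 1.55, Esrra at 0.47 and Tfb1m at 1.66, and Gabpb1, the partner of Gabpa, was lowered at -0.81 beside Pprc1. Esrra, an estrogen-related receptor that acts on respiratory genes, also changed by 0.56 with RA at day 14 (SE 0.17, adjusted p = 0.0209, edgeR), which was not called. Nrf1 lay at 0.07 (SE 0.31) and Gabpa at -0.52 (SE 0.23), neither of them called, and Yy1 at -0.31 with an adjusted p of 0.321 (edgeR).

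Promoter letters were read for the 38 of 43 symbols found in the RefSeq promoter table of build GRCr8, which gives 250 bases before and 50 after each annotated start, while the counts were made on Rnor_6.0. Exact letters were searched on both strands, and each share is set beside the share in the 9632 promoters of measured genes. AAGATGGC, the core of the site of the factor YY1, was in 8 of 38 promoters (21.1%) against 5.60%, and in 3.17% of all 33469 promoters. All 8 matches were on the gene's strand and began 2 to 26 bases past the start. The letters hold ATG, so a match there may also cover a start codon, which was not tested.

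The NRF1 core GCGCANGCG was in 26.3% of the members against 13.5%, CCGGAAG of the ETS factor GABPA in 21.1% against 18.1%, and GGGCGG of SP1 in 42.1% against 62.6%. AAGGTCA, bound by estrogen-related receptors, was in 7.89% against 2.69%, and AGGTCA, which it contains and which nuclear receptors share, was in 21.1% against 11.5%. The shares of all promoters were 5.80% for the NRF1, 8.74% for the GABPA, 33.1% for the SP1, 4.61% for the AAGGTCA and 16.2% for the AGGTCA letters, so the SP1 share of the members was below that of the measured genes and above that of all promoters. Of the 10 members raised at T14 with a promoter in the table, 4 had the YY1 letters and 1 the NRF1 letters. A match describes letters and is no evidence of binding.

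The windows around all 8 YY1 matches are given for reading where the letters lie. They share those letters because the search chose them. Each window has 30 bases on the gene's strand in GRCr8, with the searched letters in capitals. Ndufs7 (chr7:10110476-10110505, minus strand), Ndufs4 (chr2:47794892-47794921, minus), Ndufa9 (chr4:161374142-161374171, minus) and Ndufb8 (chr1:253362897-253362926, minus) were raised at T14, while Ndufa6 (chr7:115750284-115750313, minus), Ndufa3 (chr1:74515524-74515553, minus), Ndufa2 (chr18:28631840-28631869, minus) and the assembly factor Ndufaf8 (chr10:105879899-105879928, plus) were not called.
Ndufs7: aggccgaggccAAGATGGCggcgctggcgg
Ndufs4: ttgcccacaggAAGATGGCggcggtctcaa
Ndufa9: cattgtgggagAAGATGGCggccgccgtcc
Ndufb8: cggagaaggtgAAGATGGCggcgtcccggg
Ndufa6: gcttccttagcAAGATGGCggccgcggcca
Ndufa3: tgtccaagaccAAGATGGCtgctagtaagt
Ndufa2: ctttgctagcaAAGATGGCggccgcaagcc
Ndufaf8: aggcagggcccAAGATGGCggcgcccacaa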

How the data were processed

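RNA-seq counts of 15 libraries were analysed. According to the labels and the study's methods, reads came from a stranded mRNA kit, were trimmed on the Galaxy platform, mapped with HISAT2 to Rnor_6.0 and counted with featureCounts. Per the labels and methods the deposited values are unnormalized counts per gene, already limited by the authors to rows whose sum exceeds 20 (the smallest sum was 21). Tool versions, annotation release and strandedness in featureCounts are not given in the sources used here, so reads of overlapping genes may be shared. A further deposited column gives a size per gene, read here as the longest transcript in bases and used only for levels per kilobase.

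Groups were taken from the sample titles. For 12 samples a cell line field of the labels names a line other than H9c2, whereas all titles and protocols say H9c2, and the titles were followed. The main test was edgeR 4.0.16 (R 4.3.3) with TMM scaling and its robust quasi-likelihood test, run on all 11574 genes. An additive model with T7, T14 and RA terms follows the study's formula. A model of 5 group means gave RA at each day, the difference of the RA changes and the second week in each arm. P-values were adjusted by Benjamini-Hochberg over all genes and called under 0.001, or under 0.05 for the difference of the RA changes. Intervals are 95% intervals from the fit's degrees of freedom, and they, like the tests, cover these libraries only. Counting was without molecular identifiers. The test was also run on simulated counts with a known change in some genes. For the T14 term it missed many of these genes at an adjusted p under 0.001, so a missing call is weak evidence of no change.

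The members and lists were chosen with earlier results of these data known. Every Nduf row enters the counts and medians, and not every row is named. T14 changes are given for the core subunits, with the exception stated below, and for Ndufa4 and the Ndufaf factors. Levels by library are given for the 8 largest T14 changes among those called. No member was called for any RA comparison. Ndufv1, Ndufb10, Ndufab1 and Ndufb7 are shown by library as examples chosen after their values were seen. Alternatives were other scalings, filters, DESeq2 1.42.0, limma 3.58.1, thinned counts, a replicate block and leaving out each library. The single values of 1 member are not reported here, though it stays in the counts and medians. No 2 libraries of a group agreed within sampling noise.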

Additional observations from a re-analysis of the deposited data

How the results depend on the processing

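The RA term, RA at day 7, RA at day 14, the difference of the RA changes and the second week without RA called 0 members in all fits at the thresholds above. At an adjusted p under 0.05 the RA term called 1 and RA at day 14 called 2, against 14.7% and 11.2% of all genes in either direction. The second week without RA called 3 at that level, against 4.2% of all genes raised. For the T14 term the count was 22 at an adjusted p under 0.05, against 17.9% of all genes raised. It was 6 with DESeq2, 5 with limma-voom, 3 with limma on quantile-normalized counts, 7 with thinned counts and 5 to 12 when each library was left out. For the T7 term the count was 6 at an adjusted p under 0.05, against 11.7% of all genes raised. It was 3 with library size alone as the scaling, 2 with at least 10 counts in every library, 0 with quantile normalization and 0 to 2 when each library was left out. For the second week with RA the count was 13 at an adjusted p under 0.05, against 5.66% of all genes raised. It was 4 with at least 10 counts in every library, 1 with limma-trend, 0 with quantile normalization and 1 to 7 when each library was left out. The cause of these shifts was not tested. None of the called changes turned its sign. Scaling by library size alone moved the median of all genes to 0.13 at T7 and 0.15 at T14.

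Over all genes, deviations of same-numbered libraries had a mean correlation of 0.018 (from -0.035 to 0.099). For different numbers the mean was -0.009 and the highest 0.053. The numbers were not taken to pair the samples. At these counts sampling noise lowers such correlations, so they cannot exclude a pairing. Among the members, replicate 3 was often the lowest library of its group, as given above. With a replicate block the T7 term called 2 members, the T14 term 12 and the second week with RA 5 in place of 2.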
